A study of Cyprinus carpio with 2 samples.

Results

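The genes described here are 6 genes associated with Sertoli cells, the supporting cells of the testis. They are amh, sox9a, wt1a, cldn11a, gata6 and NROB1, and they were chosen by the symbol deposited for each unigene, a numbered transcript unit. Each symbol was carried by 1 unigene, giving 6 unigenes of 22634 in all. RNA sequencing was done on immature gonads of juvenile fish of the common carp, Cyprinus carpio. The fish were between 110 and 130 days old, counted from hatching, and each gonad type gave 1 library, testis or ovary. The labels name no strain, treatment or genotype and do not say how many fish each library holds.

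The values are reads per unigene, scaled by the authors with a size factor for each library. The deposited values were whole multiples of 1.73 units in testis and 2.31 units in ovary, and each such step is taken here as 1 read. The 22634 unigenes held 1926860 testis reads and 4311799 ovary reads, with medians of 29 testis and 35 ovary reads. No unigene was below 1 read in either library. Since each tissue has 1 library, the differences could not be checked against replicates, and no p-value was computed from the reads. Intervals are exact 95% intervals for reads or for the ratio of reads, and cover counting error only. As deposited, the median over all unigenes was a 1.78-fold difference toward ovary, so folds below are relative to that median unless called "as deposited". The value columns carry the letters A and B, and B was taken as testis and A as ovary from the titles of the authors' lists of testis-rich and ovary-rich unigenes. An error in those titles would exchange every direction.

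Sertoli cells surround the germ cells of a seminiferous tubule or cyst, nourish them and carry much of the signalling that keeps a gonad on the male course. In vertebrates sox9 and dmrt1 act early in that course, wt1 and gata factors act in the somatic gonad before and during it, and amh is a hormone of the TGF-beta family that Sertoli cells secrete. Claudin 11 builds the tight junctions between Sertoli cells that form the blood-testis barrier. The gene dax1, now named nr0b1, encodes an orphan nuclear receptor that acts mostly as a repressor of steroidogenic genes. Several of these genes are not exclusive to Sertoli cells, since granulosa cells of the ovary also make amh, gata6 and wt1, and podocytes of the kidney make wt1.

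All 6 genes were higher in the testis library than in the ovary library. The differences ran between 12.7-fold for NROB1 and 130.0-fold for wt1a. All 6 unigenes are in the authors' list of 171 testis-rich unigenes, which holds only unigenes higher in testis. Their presence there is thus not independent evidence of a male program. For cldn11a and wt1a, which were included through that list alone, the authors' choice fixed the direction. All 6 passed 4-fold toward testis, and 0 toward ovary. Of the 21649 unigenes that reached 5 units in one library, 13.8% passed 4-fold toward testis and 11.2% toward ovary. As deposited, without setting the median to 1, these shares were 6.14% and 23.2%. Fewer cells of a type and less RNA per cell cannot be told apart in such whole-tissue libraries.

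**Figure D1:**
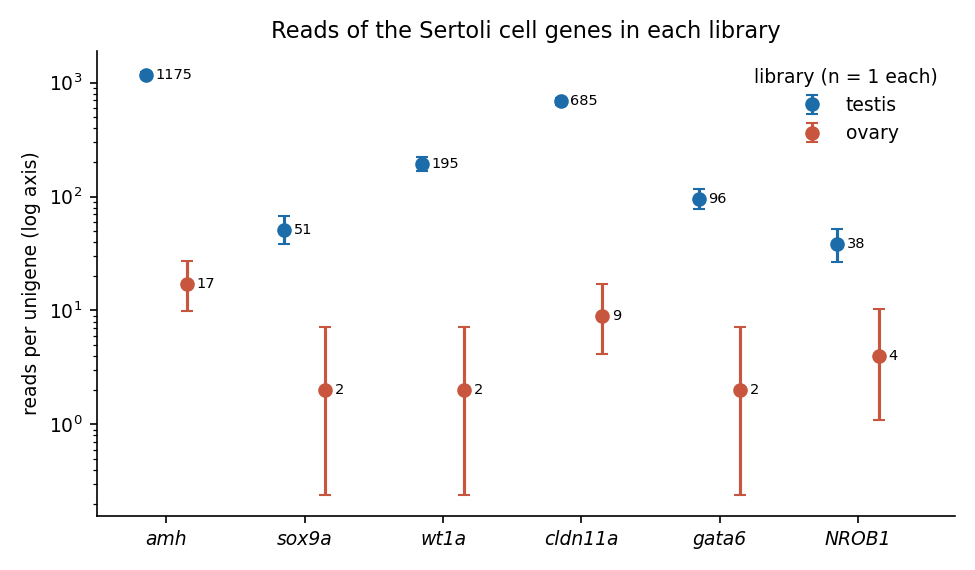
Reads of the 6 Sertoli cell genes, on a log axis, in the testis library (blue) and the ovary library (red), 1 library each. Bars are exact 95% Poisson intervals. Testis reads ran between 38 and 1175 and ovary reads between 2 and 17, and neither is scaled for library size.

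The secreted factor of the group, amh (Unigene_64952, deposited as Anti-Mullerian hormone), had 1175 reads in testis (95% interval 1109 to 1244) and 17 reads in ovary (9.90 to 27.2). In deposited units these are 2035 in testis and 39.3 in ovary. It was 92.2-fold higher in testis (95% interval 57.3 to 159), or 51.8-fold as deposited (32.2 to 89.3).

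Among the transcription factors, wt1a (Unigene_70971), a zinc finger protein needed for the somatic gonad and the kidney, had 195 testis reads (168.6 to 224) and 2 ovary reads (0.242 to 7.22). Its difference was the highest of the group, 130.0-fold toward testis (95% interval 35.5 to 1081). The GATA zinc finger factor gata6 (Unigene_63814) had 96 testis reads (77.8 to 117) and 2 ovary reads, a 64.0-fold difference (17.2 to 536). The HMG box factor sox9a (Unigene_63878) had 51 testis reads (38.0 to 67.1) and 2 ovary reads, 34.0-fold toward testis (8.94 to 288). These 3 genes had the same 2 ovary reads, so the order of their folds follows the testis reads alone, and the upper ends of their intervals are set by those 2 reads.

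The unigene deposited as NROB1 (Unigene_54280, protein name Dax1), with the letter O in its symbol, had 38 testis reads (26.9 to 52.2) and 4 ovary reads (1.09 to 10.2). It was 12.7-fold higher in testis (95% interval 4.56 to 48.9), or 7.12-fold as deposited (2.57 to 27.5). Its difference was the smallest of the 6 genes.

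The junction gene cldn11a (Unigene_65925, protein name Claudin) had 685 testis reads (634.7 to 738.3) and 9 ovary reads (4.12 to 17.1). It was 101.5-fold higher in testis (95% interval 53.1 to 223). Of the 6 genes, cldn11a and wt1a were found in the authors' testis list but not among the rows of the expression table, while the other 4 were in both.

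In order of the difference the genes ran wt1a, cldn11a, amh, gata6, sox9a and NROB1. Every neighbour in that order had overlapping intervals. Of the 15 pairs among the 6 genes, 13 overlapped, and the exceptions were NROB1 against amh and NROB1 against cldn11a. Unigene lengths are not given, so read numbers of different genes were not compared as levels of expression.

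**Figure D2:**
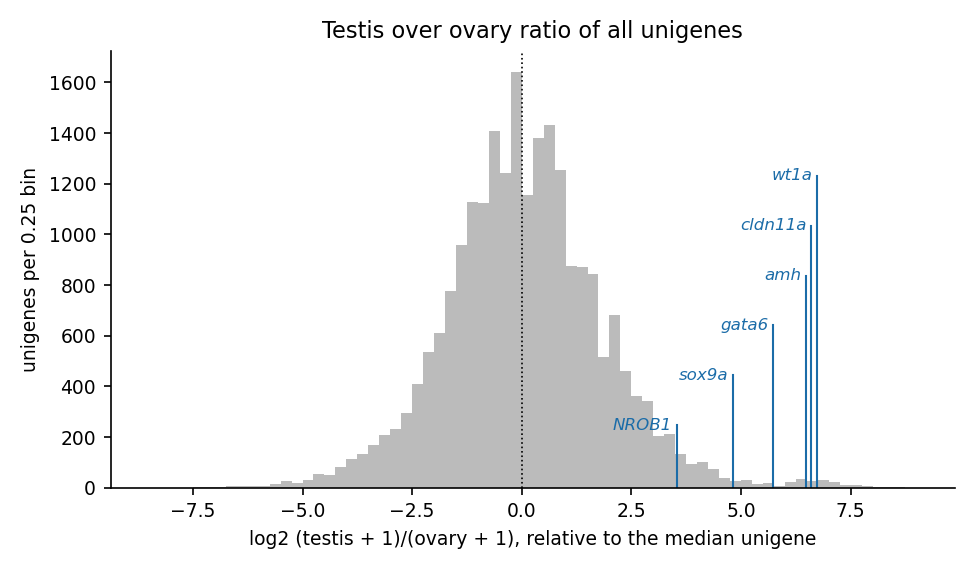
Number of unigenes, in bins of 0.25, against the log2 ratio of testis over ovary (1 unit added to each) relative to the median unigene. Blue lines mark the 6 Sertoli cell genes, from NROB1 at 3.53 to wt1a at 6.74, in the testis-rich tail.

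On the log2 scale with 1 unit added to each value, the ratios relative to the median were 6.74 for wt1a, 6.59 for cldn11a and 6.49 for amh. They were 5.72 for gata6, 4.82 for sox9a and 3.53 for NROB1, and the median of the 6 was 6.11. Counted from the most testis-rich of all 22634 unigenes, wt1a ranked 96, cldn11a 110, amh 122, gata6 188, sox9a 270 and NROB1 711. These ranks are among unigenes with at least 1 read in both libraries, of which 147 came from the authors' testis list alone. The log2 ratio differed between low and high unigene numbers, and all 6 genes carry numbers from 54280 to 70971. The 10730 unigenes of the upper number range had a median log2 ratio 1.14 above that of all unigenes, and 29.1% of those that reached 5 units passed 4-fold toward testis. Relative to the median of that range the ratios were 5.60 for wt1a, 5.45 for cldn11a, 5.35 for amh, 4.58 for gata6, 3.68 for sox9a and 2.39 for NROB1. All 6 thus stayed past 4-fold within their own range. The 29.1% is counted relative to the median of all unigenes, and the share past 4-fold relative to the range median was not computed. The 11904 unigenes of the lower number range had a median log2 ratio 0.86 below that of all unigenes. Folds of other genes below are not relative to these range medians unless so stated. The part of the number range in these results was not tested.

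The p-values of these genes in the authors' deposited table and testis list ran from 0.0212 for sox9a to 0.0485 for cldn11a, and how they were computed or adjusted is not given in the sources used here. In the authors' deposited table the p-value followed the pair of read numbers. Of 2071 pairs of testis and ovary reads that 2 or more unigenes shared, 2069 had the same p-value for all their unigenes within 1e-06 in the authors' deposited table. The other 2 pairs were those of NROB1 and gata6.

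For NROB1 the authors' deposited table gives p = 0.0397804, whereas zgc:110158 (Unigene_68689), with the same 38 testis and 4 ovary reads, has p = 0.3978042. The first 6 significant digits of both values are the same and the decimal point is 1 place apart. For gata6 the authors' deposited table gives p = 0.0256392, whereas rnf40 (Unigene_67063), with the same 96 testis and 2 ovary reads, has p = 0.0956392. Those values differ in 1 digit.

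No other unigene had the reads of sox9a, so its neighbours were compared. With 2 ovary reads, tnrc18 at 48 testis reads has p = 0.225 and pex5 at 53 testis reads has p = 0.203 in the authors' deposited table, whereas sox9a at 51 testis reads has p = 0.0212. Among the 6806 unigenes of the authors' deposited table that were higher in testis, 3 had a lower p-value than some unigene with the same ovary reads and more testis reads. These 3 were NROB1, sox9a and gata6, with 31, 21 and 4 such unigenes.

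**Figure D3:**
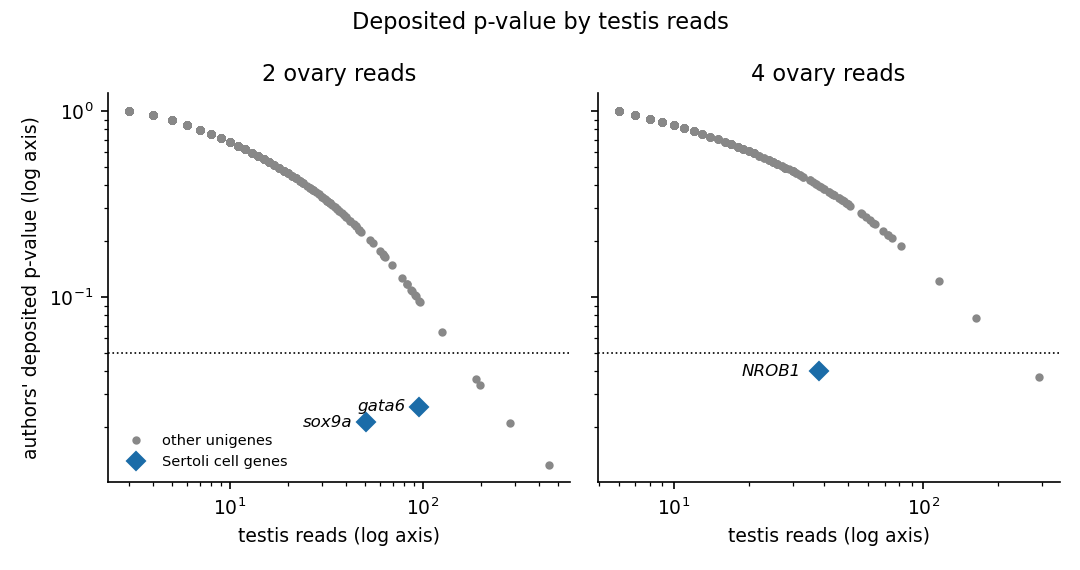
The authors' deposited p-value against testis reads, both on log axes, for unigenes of the expression table that were higher in testis, with 2 ovary reads (left) or 4 ovary reads (right). Grey points are other unigenes, blue diamonds are Sertoli cell genes, and the dotted line is 0.05. The diamonds for sox9a, gata6 and NROB1 lie below the line and below the grey points of like reads.

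Every unigene of the authors' testis list has a deposited p-value below 0.05, the highest being 0.0499. By log2 fold change in the authors' deposited table, or in their testis list for unigenes without a row there, 3 genes are the lowest of the 171 unigenes of that list. These are NROB1 (2.83), sox9a (4.26) and gata6 (5.17), and the next is foxo3b at 5.27. The authors' deposited table holds 601 unigenes with a larger fold change than NROB1, 96 with a larger one than sox9a and 19 with a larger one than gata6 that are not in the list. The cause of these differences was not tested. For wt1a the p-value comes from the authors' deposited testis list, at 0.0343. It lies between those of si:ch211-39i2.2 (0.0361, with 188 testis reads) and Dmrt1-1 (0.0338, with 197) in the authors' deposited table, at the same 2 ovary reads. For amh no unigene of the authors' deposited table with 17 ovary reads had more testis reads. There slc40a1, next below amh with 725 testis reads, has 0.0615 in the authors' deposited table against 0.0471 for amh. For cldn11a, whose 0.0485 also comes from the authors' deposited testis list, the next below at 9 ovary reads in the authors' deposited table is znf143b, with 251 testis reads and 0.0920. The reads and folds above do not use these p-values.

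AMH acts by bringing a type II and a type I serine/threonine kinase receptor together, which then activates Smad proteins that enter the nucleus. The receptor and Smad list held 29 unigenes of 12 of its 22 symbols, and amhr2, the dedicated AMH receptor of mammals, was not analysed here. Of the 28 unigenes that reached 5 units, 5 passed 4-fold toward testis and 2 toward ovary, against 13.8% and 11.2% of all unigenes, so the list lay near the background. The median log2 ratio was -0.21, against 0 over all unigenes, and -0.13 relative to the number range medians. As deposited the counts were 3 and 8, and with equal totals 5 and 0, with a median of 0.54. The type II receptor bmpr2a (Unigene_69525) had 450 testis and 5 ovary reads and was 120.0-fold higher in testis (95% interval 51.0 to 371). It is in the authors' testis list and has no row in the expression table, so bmpr2a was included only as a testis-rich unigene. One unigene of the type I receptor acvr1l (Unigene_60859, also deposited as alk8) had 99 testis and 3 ovary reads, and a second (Unigene_60858) had 80 testis and 16 ovary reads. Summed over its 5 unigenes, acvr1l held 302 testis and 114 ovary reads, a 3.53-fold difference toward testis (95% interval 2.84 to 4.42). This sum rests on pieces that differ among themselves, since Unigene_4893 had 14 testis and 21 ovary reads.

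Other receptors of the family had smaller differences. The activin receptor acvr1ba had 60 testis and 281 ovary reads, 3.51-fold toward ovary (2.65 to 4.72). Its paralogue acvr1bb held 296 testis and 221 ovary reads in 3 unigenes, 1.786-fold toward testis relative to the median (1.495 to 2.135). As deposited acvr1bb was nearly equal, at 512.7 units in testis and 510.4 in ovary, so its direction rests on the scaling. The 2 unigenes of acvr2b held 19 testis and 78 ovary reads. The type I receptor bmpr1bb, whose loss disturbs germ cell differentiation in zebrafish testis, held 4 testis and 11 ovary reads in 2 unigenes, and its interval spans the median. Of the targets, id1 had 127 testis and 251 ovary reads, 1.48-fold toward ovary (1.19 to 1.85). For id2b there were 31 testis and 95 ovary reads, 2.30-fold toward ovary (1.52 to 3.57). Its log2 ratio was -1.18 relative to all unigenes but -0.32 relative to the median of its own number range. A further target, id3, held 31 testis and 29 ovary reads in 3 unigenes. Its most uneven unigene had 22 testis reads and 1 ovary read (Unigene_57938), but another (Unigene_6054) had 1 testis and 9 ovary reads. The inhibitory Smad smad6a likewise had 1 testis and 9 ovary reads in Unigene_9518, and 34 testis and 63 ovary reads over its 4 unigenes. The last of the unigenes past 4-fold, acvr2ab Unigene_48022, had 20 testis and 5 ovary reads. Most of the list, 22 of 29 unigenes, lay within 4-fold of the median or below 5 units.

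Claudins are membrane proteins that seal the space between neighbouring cells, and each tissue uses its own set. Symbols that start with cldn held 13 unigenes of 10 symbols, including 1 unigene of cldnd1a and 2 of cldnd1b, which encode claudin-domain proteins. Of the 13, 3 passed 4-fold toward testis and 7 toward ovary, beside 13.8% and 11.2% of all unigenes. The 3 toward testis were cldn11a, cldnc (Unigene_64787) and cldn7a (Unigene_63216), and all 3 come from the authors' testis list, so the expression table alone holds no claudin past 4-fold toward testis. For cldnc there were 1195 testis and 9 ovary reads, a 177-fold difference (92.9 to 388), and for cldn7a 162 testis reads and 1 ovary read. The 9 ovary reads of cldnc equal those of cldn11a.

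Toward ovary, cldnd (Unigene_45819) had 759 testis and 12500 ovary reads and was 12.4-fold higher in ovary (95% interval 11.5 to 13.3). Both unigenes of cldng were higher in ovary, with 412 testis and 4966 ovary reads together, 9.04-fold (8.18 to 10.02). The 2 unigenes of cldn7b held 133 testis and 1048 ovary reads, 5.91-fold toward ovary (4.93 to 7.13). The named pair cldn7a and cldn7b therefore lay on opposite sides, cldn7a toward testis and cldn7b toward ovary. For cldna there were 1 testis and 35 ovary reads, and for cldnd1a, a claudin-domain protein, 12 testis and 158 ovary reads. The remaining unigenes, cldnh and both of cldnd1b, lay within 4-fold of the median.

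**Figure D4:**
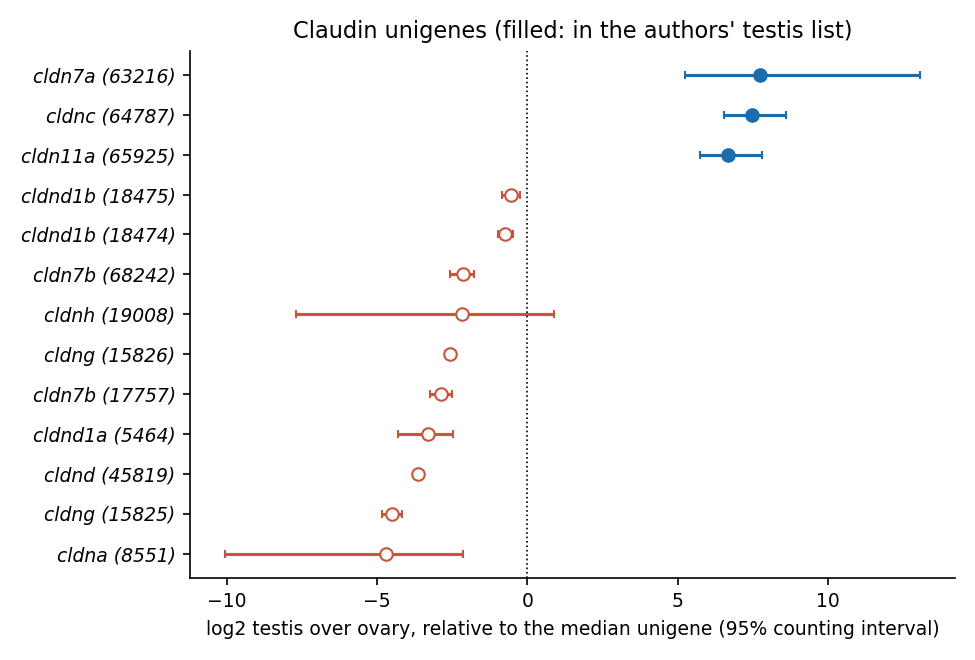
Log2 ratio of testis over ovary relative to the median unigene for the 13 unigenes whose symbols start with cldn. They include the claudin-domain genes cldnd1a and cldnd1b. Each is named by symbol and unigene number, with exact 95% counting intervals. Filled points are in the authors' testis list. The points of cldn7a, cldnc and cldn11a lie far to the testis side and the other 10 lie on the ovary side of 0.

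Another list held proteins that join claudins to the cytoskeleton or stand beside them in a tight junction, with 57 unigenes of 12 of its 16 symbols. Of the 50 that reached 5 units, 9 passed 4-fold toward testis and 10 toward ovary, beside 13.8% and 11.2% of all unigenes. The split follows the scaling, with 3 and 13 as deposited and 15 and 4 with equal totals. Its median was 0.49 relative to all unigenes, but -0.33 as deposited and 0.12 relative to the number range medians. Toward testis, cgnb (cingulin, a scaffold of the junction plaque) had 450 testis and 13 ovary reads in Unigene_70492, and 754 testis and 344 ovary reads over its 3 unigenes. A unigene of tjp1b, which encodes a ZO-1 scaffold, had 26 testis reads and 1 ovary read (Unigene_70705). The 7 tjp1b unigenes together held 133 testis and 168 ovary reads, which lies at the median (1.06-fold, 0.834 to 1.33). The adhesion molecule jam2b held 36 testis and 6 ovary reads, 8.0-fold toward testis (3.34 to 23.2). Its paralogue jam2a lay the other way on more reads. The 3 unigenes of jam2a held 188 testis and 1040 ovary reads, 4.15-fold toward ovary (3.55 to 4.87).

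Occludins are membrane proteins of the same junction, and their unigenes lay toward ovary except for one of oclna with 2 testis and 2 ovary reads. The 2 oclnb unigenes held 61 testis and 857 ovary reads, 10.5-fold higher in ovary (8.12 to 13.9), and the 3 oclna unigenes held 12 testis and 280 ovary reads, 17.5-fold (9.86 to 34.3). For marveld3, a relative of occludin, there were 1 testis and 46 ovary reads, 34.5-fold toward ovary with a wide interval (5.89 to 1392). None of the unigenes in this list is in the authors' testis list.

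Relatives of the transcription factors were few. No other unigene of the sox8, sox9, sox10 or wt1 families was matched, and wt1b and sox9b were not analysed here. The GATA family held gata2b besides gata6, with 1 testis and 5 ovary reads. The nearest relative of NROB1, nr0b2a (small heterodimer partner in mammals), had 22 testis and 89 ovary reads, 3.03-fold toward ovary (1.89 to 5.08). Its log2 ratio was -1.57 relative to all unigenes and -0.71 relative to the median of its number range. Of the 14 symbols listed as partners and targets, 4 were found, in 7 unigenes, of which 6 reached 5 units, with 0 past 4-fold toward testis and 1 toward ovary, beside 13.8% and 11.2% of all unigenes. As deposited 4 passed toward ovary. The one relative to the median was an lhx9 unigene (Unigene_8693) with 2 testis and 16 ovary reads. All 3 unigenes of lhx9, a LIM factor of the early gonad, held 15 testis and 46 ovary reads. The Polycomb gene cbx2, needed for male sex determination in mammals, held 138 testis and 587 ovary reads in 2 unigenes, 3.19-fold toward ovary (2.65 to 3.87). Among other testis somatic genes, 2 of 24 symbols were found, and both are in the authors' testis list. Dmrt1-1 had 197 testis and 2 ovary reads. The fshr unigene, which the authors' protein name calls a thyrotropin receptor, had 191 testis reads and 1 ovary read.

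**Figure D5:**
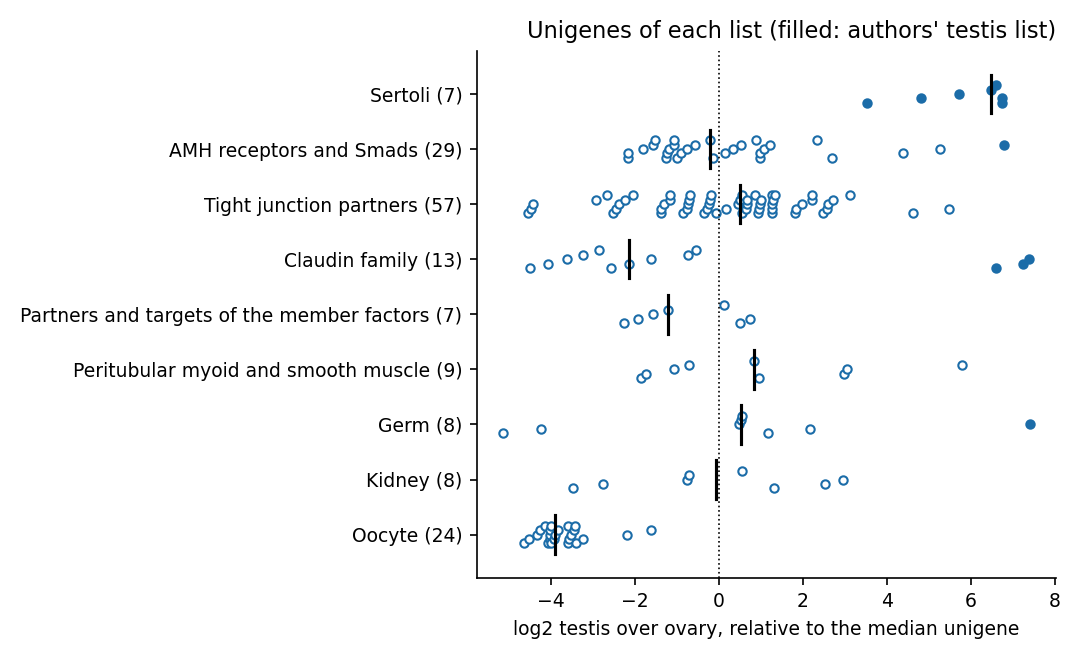
Log2 ratio of testis over ovary relative to the median unigene for each unigene of 9 lists, with the number of unigenes in brackets. Black bars are list medians and filled points are in the authors' testis list. The Sertoli list lies wholly on the testis side, with its median at 6.49, and the oocyte list on the ovary side at -3.92. All 7 unigenes of the Sertoli list are in the authors' testis list, which holds only unigenes higher in testis. The other 7 lists plotted have unigenes on both sides of 0.

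Markers of cells that a gonad library can hold were also read. Of 9 Sertoli markers 7 were found, the 6 genes above and Dmrt1-1, and together they held 2437 testis and 38 ovary reads. All 7 are in the authors' testis list, which holds only unigenes higher in testis, so the marker list is no check of the Sertoli label. The granulosa and Leydig lists, of 10 and 7 symbols, matched no unigene and were not analysed here, so Sertoli cells were not told apart from those cells. Oocyte markers, 24 unigenes of 7 of 8 symbols, held 12452 testis and 216332 ovary reads. Of these unigenes 23 were at least 4-fold higher in ovary, beside 11.2% of all unigenes that reached 5 units. Germ cell markers, 8 unigenes of 4 of 9 symbols, held 2694 testis and 4416 ovary reads, of which nanos3 alone held 55 testis and 2489 ovary reads. The others lay toward testis, dnd1 by 2.41-fold, sycp1 with 183 testis reads and 1 ovary read, and dazl by 1.44-fold, although dazl lay toward ovary as deposited. The sycp1 unigene is in the authors' testis list, which holds only unigenes higher in testis. The 12 smooth muscle and peritubular symbols matched 9 unigenes, of acta2, cnn1b and smtnb, which held 162 testis and 317 ovary reads. Of these, acta2, smooth muscle actin, held 70 testis and 17 ovary reads over 4 unigenes. The other way lay smtnb, a smoothelin, with 83 testis and 291 ovary reads over 3 unigenes. Kidney markers, 8 unigenes of 4 of 13 symbols, held 105 testis and 415 ovary reads. The distal tubule transporter slc12a3 held 66 testis and 12 ovary reads, whereas hnf1ba held 23 and 347 and hnf1bb 15 and 53. The part of oocyte, germ, smooth muscle and kidney transcripts in the differences of the 6 genes was not tested.

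The unigenes most like each gene were those at the smallest distance over log2 values of the 2 libraries. For wt1a the nearest was Dmrt1-1, at a distance of 0.015 with 197 testis and 2 ovary reads, followed by si:ch211-39i2.2 and shc2, each with 188 testis and 2 ovary reads. For amh the nearest was edc4 (Unigene_72846), an mRNA decapping factor, with 1118 testis and 20 ovary reads. Next to amh came ORF2p (Unigene_72871) with 1254 testis and 13 ovary reads, and nupr1 (Unigene_54614) with 1191 testis and 23 ovary reads. For cldn11a they were ORF2p (Unigene_72872), bhmt and akap12b, with 573, 851 and 671 testis reads and 10, 9 and 12 ovary reads. For sox9a they were pex5, tnrc18 and si:ch211-126j24.1, with 48 to 55 testis reads and 2 ovary reads each. The values of gata6 equalled those of rnf40 and were followed by ftr97 and a LOC101886407 unigene, and those of NROB1 equalled those of zgc:110158 and were followed by strn and eif3jb. With 2 libraries a likeness of this kind says only that read numbers were alike.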

How the data were processed

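Total RNA of testis and ovary was made into libraries with an RNA sequencing kit, per the labels' protocols. No aligner, assembler, counting tool or genome build was given in the sources read. The deposited values are a signal, reads per unigene divided by the authors by 1 size factor per library. Dividing by the step of each column gave whole reads within 0.01 read for 22632 testis and 22632 ovary values of 22634 (99.991% each). Whether a step is 1 read or a read pair was not tested. The log2 fold change deposited by the authors is B over A, recomputed within 0.001 for all 22487 unigenes of the expression table. The p-values are the authors' own, per the file headers.

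Columns were assigned by list titles: all 171 unigenes of the testis list are higher in B and all 127 of the ovary list in A. The 147 testis list unigenes without a row in the table were added. They were picked by the authors for testis. This touches cldn11a and wt1a among the 6 genes, and others named here such as bmpr2a and fshr.

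The log2 ratio was log2 of (testis + 1) over (ovary + 1), less its median, and understates differences where values are low. Calls needed a 4-fold difference and 5 units in one library. Ratios of reads carry Clopper-Pearson 95% intervals, and reads carry exact Poisson intervals, for counting error only. No test was run, since each tissue has 1 library, so no count model was fitted. The interval code was tested on simulated data. Symbols amh, sox9a, wt1a and gata6, 4 of 6, matched the carp RefSeq annotation (assembly ASM1834038v1), used for names only. Reads can be divided among near-identical copies in this duplicated genome. No sequences are printed.

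The genes, lists and comparisons were chosen with earlier results of these data known. List members were matched on the first deposited symbol, with or without a paralogue letter. Named in each list were up to 6 unigenes past 4-fold with the largest ratios, with others added after their values were seen, and for each gene the 3 unigenes nearest over log2(value + 1). The comparison of deposited p-values was also chosen after the data were seen. Alternatives were pseudocounts of 0.1 and 10, other scalings, floors of 0 and 20 units, 2-fold and 8-fold thresholds, the table alone and summed symbols. Python 3.11.15, numpy 2.4.6, pandas 2.3.3, scipy 1.17.1 and matplotlib 3.10.9 were used.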

Additional observations from a re-analysis of the deposited data

How the results depend on the processing

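All 6 genes stayed at least 4-fold higher in testis under every scaling, pseudocount and floor tried. The 4 with a row also did so in the expression table alone. With the main scaling and pseudocount all 6 passed 8-fold. NROB1 was below 8-fold as deposited (log2 ratio 2.71), with a pseudocount of 10 (2.54) and within its number range (2.39). All 6 are in the authors' testis list, which holds only unigenes higher in testis, and the alternatives use the same 2 libraries. They are therefore no independent check of the direction. Of 46 values of single genes under alternatives, 43 moved by less than their counting interval. The others were amh as deposited (5.66) and, within the number range, amh (5.35) and cldn11a (5.455). The counts and medians of the lists did depend on the settings. With a pseudocount of 10, the receptor and Smad list had 0 unigenes toward ovary, the tight junction list 5 toward testis, the testis somatic list a median of 5.25, and 1280 of all unigenes lay toward testis. As deposited, the receptor list had 3 toward testis and 8 toward ovary (median -1.04), the tight junction list 3 toward testis (median -0.33), the testis somatic list a median of 6.29, the partner list 4 toward ovary (median -2.04), and all unigenes 1329 toward testis and 5022 toward ovary. With equal totals, the receptor list had 0 toward ovary (median 0.54), the tight junction list 15 toward testis and 4 toward ovary (median 1.245), the testis somatic list a median of 7.865, the partner list 0 toward ovary (median -0.46), and all unigenes 5025 and 1181. These shifts follow from the median of all unigenes, which is -0.83 as deposited and 0.75 with equal totals. At 2-fold, 10 receptor unigenes lay toward ovary, 16 tight junction unigenes toward testis, 4 partner unigenes toward ovary, and 5902 and 5897 of all unigenes toward testis and ovary. At 8-fold the receptor list had 3 and 0, the tight junction list 3 and 3, the partner list 0 toward ovary, and all unigenes 1136 and 948. In the table alone, 1 testis somatic unigene lay toward testis, since fshr has no row there. With unigenes of one symbol summed, the receptor list had 2 and 0, the tight junction list 1 and 3, the partner list 0 toward ovary, and all symbols 749 and 990. In the main results 2984 of all unigenes lay toward testis and 2422 toward ovary. No paired analysis was possible because each tissue has 1 library, and for the same reason no library could be left out. Ovary reads of 2 to 17 limit the folds of the 6 genes more than the testis reads do.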

Other observations

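The values below are those of single unigenes in the marker lists described above. Of the germ cell markers, the RNA-binding protein gene dnd1 held 497 testis and 146 ovary reads in Unigene_15044, 122 testis and 72 ovary reads in Unigene_64162, and 305 testis and 293 ovary reads in Unigene_15045. The kidney and gut factor hnf1ba had 23 testis and 347 ovary reads. The most uneven acta2 unigene (Unigene_59723) had 59 testis reads and 1 ovary read, whereas the largest smtnb unigene (Unigene_17975), a smoothelin of contractile cells, had 59 testis and 286 ovary reads.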
